A study of Homo sapiens with 17 samples.

Results

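Potassium channel genes were taken as every symbol of the RNA count table that begins with KCN, goes on with letters and ends in a number, which gave 95 of 60199 symbols: 79 pore-forming and 16 auxiliary subunits. The choice used names alone, and a peak of trimethylated lysine 27 of histone H3 (H3K27me3) within 2 kb of a gene end was recorded for each gene and not required. The cells were neurons at day 40 of culture, grown from H9, an established human embryonic stem cell line, through embryoid bodies and neural progenitors, and kept at the end in medium with BDNF, GDNF, a cyclic AMP analogue and ascorbic acid. All groups had this same treatment. The WT group was unedited H9. The knockout (KO) groups, KO1 and KO2, carry the genotype label UTX-/-. UTX (gene symbol KDM6A) is an enzyme that strips the H3K27me3 mark from chromatin, and the study's title asks about its part in neural differentiation, in dendrite shape and at bivalent promoters, where activating and repressive marks meet. The RNA libraries, from polyA RNA, were 3 of WT, 3 of KO1 and 2 of KO2, and chromatin was precipitated once per line for H3K27me3, for H3K36me3 and for a control named input whose antibody is normal rabbit IgG. How the knockout was made, and whether each line is a single clone, is not stated in the labels.

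Potassium channels let potassium leave the cell and so hold the resting potential and end the action potential. Voltage-gated (Kv) channels open on depolarisation, Kv7 and ERG channels carry slow currents that damp firing, SK and BK channels open with calcium, inward rectifiers and 2-pore channels set the resting potential, and auxiliary subunits change the traffic and gating of the pores. H3K27me3 is written by Polycomb complexes and marks repressed promoters, and H3K36me3 marks the bodies of transcribed genes.

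Library totals were 17.4 to 31.5 M estimated counts (M for mega). KDM6A itself read 35.7 CPM ± 0.451 (SD, n = 3) in WT, against 33.0 ± 5.50 (SD, n = 5) in KO, where CPM is the count relative to the library's total after TMM scaling, so the gene's RNA level did not separate the genotypes and checks no label. KO below means the libraries labelled so. KO1 replicate 2 and both KO2 libraries stood apart: COL1A1, a fibroblast collagen, read 9226 to 27540 CPM there and 7.65 to 387.1 CPM in the other 5 libraries. These 3 are called the high-collagen libraries. In them the 12 mesenchymal markers summed to 25843 to 66982 CPM, against 146 to 1804 in WT and 1024 to 1270 in the other 2 KO libraries, with no marker at 0 in all libraries. The 13 pan-neuronal markers, all detected, summed to 839 to 2953 CPM in the high-collagen libraries, 3949 to 6017 in WT and 4377 to 5214 in the other 2 KO libraries. Every KO value below that includes the high-collagen libraries draws on libraries with these marker levels, and their part in the results was not tested. Every KO value given without the high-collagen libraries rests on KO1 replicates 1 and 3 alone and holds no KO2 library. In bulk RNA, fewer cells of a type and less RNA per cell cannot be told apart.

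H3K27me3 lay at most pore-forming channel genes in both genotypes. Peaks were assigned by an overlap of at least 1 bp with 2 kb on either side of a gene end. By this rule 49 of 95 members (51.6%) had a peak in the WT list and 58 (61.1%) in the KO list, against 9.94% and 10.4% of 36378 genes with a position, and 15.6% and 16.4% of the 18766 protein-coding ones. Of the pore-forming members, 48 of 79 had a WT peak and 55 of 79 a KO peak. Of the auxiliary members it was 1 and 3 of 16. The same 46 members had peaks in both lists (background 8.83% of genes), 3 in the WT list only (background 1.11%) and 12 in the KO list only (background 1.61%). Each list comes from 1 alignment per genotype, so no peak difference has a replicate check, and the KO list had more tags behind it (37.6 M against 22.4 M).

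RefSeq promoters of the GRCh38.p14 build were at hand for 71 of the 95 members, and the sequences of 7 are shown because their position under the peaks differs. Each line is the 250 bases before the start site, read on the gene's strand, 5′ to 3′, with each CG dinucleotide in capitals. KCNK10, KCNIP2 and KCNH8 lay wholly under a peak of the KO list and under none of the WT list. KCNQ5 and KCNK6 lay wholly under peaks of both lists, KCNJ2 lay just before a peak of the WT list, and KCNN3 had no peak in either.
KCNJ2 (chr17:70169282-70169531, plus strand): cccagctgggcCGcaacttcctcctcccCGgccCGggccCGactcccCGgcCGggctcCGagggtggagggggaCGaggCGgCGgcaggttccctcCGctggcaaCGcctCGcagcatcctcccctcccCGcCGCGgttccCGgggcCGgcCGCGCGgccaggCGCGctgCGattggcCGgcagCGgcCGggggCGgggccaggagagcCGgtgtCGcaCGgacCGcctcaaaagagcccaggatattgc
KCNQ5 (chr6:72621814-72622063, plus strand): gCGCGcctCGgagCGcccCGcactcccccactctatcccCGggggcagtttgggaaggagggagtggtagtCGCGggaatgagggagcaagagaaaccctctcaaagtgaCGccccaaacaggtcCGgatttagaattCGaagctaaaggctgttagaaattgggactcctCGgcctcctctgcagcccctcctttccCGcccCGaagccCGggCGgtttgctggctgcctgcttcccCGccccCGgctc
KCNK6 (chr19:38319595-38319844, plus strand): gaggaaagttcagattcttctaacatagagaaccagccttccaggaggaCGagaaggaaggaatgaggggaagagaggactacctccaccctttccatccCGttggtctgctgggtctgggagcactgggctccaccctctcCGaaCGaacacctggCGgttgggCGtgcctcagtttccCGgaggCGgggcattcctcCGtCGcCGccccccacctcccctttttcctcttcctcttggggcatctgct
KCNK10 (chr14:88326913-88327162, minus strand): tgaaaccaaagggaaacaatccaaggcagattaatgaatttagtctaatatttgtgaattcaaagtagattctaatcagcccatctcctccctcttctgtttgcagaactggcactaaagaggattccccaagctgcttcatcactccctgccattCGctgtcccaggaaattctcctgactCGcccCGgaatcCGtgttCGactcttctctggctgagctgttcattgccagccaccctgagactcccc
KCNIP2 (chr10:101843801-101844050, minus strand): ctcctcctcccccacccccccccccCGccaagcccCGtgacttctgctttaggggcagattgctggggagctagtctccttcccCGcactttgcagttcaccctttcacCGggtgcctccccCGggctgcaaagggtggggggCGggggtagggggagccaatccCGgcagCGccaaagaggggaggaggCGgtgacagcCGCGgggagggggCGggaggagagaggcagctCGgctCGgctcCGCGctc
KCNH8 (chr3:19148260-19148509, plus strand): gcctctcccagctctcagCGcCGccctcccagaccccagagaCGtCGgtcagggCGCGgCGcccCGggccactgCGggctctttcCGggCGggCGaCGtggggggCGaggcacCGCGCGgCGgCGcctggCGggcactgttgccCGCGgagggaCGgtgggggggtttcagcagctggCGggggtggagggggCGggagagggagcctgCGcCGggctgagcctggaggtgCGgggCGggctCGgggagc
KCNN3 (chr1:154870282-154870531, minus strand): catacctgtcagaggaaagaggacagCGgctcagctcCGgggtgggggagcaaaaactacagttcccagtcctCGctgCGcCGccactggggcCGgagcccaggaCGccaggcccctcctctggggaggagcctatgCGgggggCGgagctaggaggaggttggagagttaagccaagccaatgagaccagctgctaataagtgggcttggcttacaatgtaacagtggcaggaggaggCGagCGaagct
The dinucleotide CG, which reads the same on both strands, occurred in 96.1% of 17851 such windows, 1 per gene, with a median of 16 per window. The median was 25 in the 31 members with peaks in both lists, 27 in the 8 with a peak in the KO list only, and 6 in the 29 with none. Over all genes the medians were 20, 17 and 15 for the same classes. KCNJ2 (32 CG) and KCNH8 (30 CG) were above the median of all windows, and KCNK10 (5 CG) and KCNK6 (11 CG) below it. CG counts are a description of these windows.

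Inward rectifiers held the member with the lowest p-value. KCNJ2 (chr17:70169532-70180044), which encodes the classical inward rectifier Kir2.1, read 1.06, 2.30 and 0.858 CPM in the WT libraries. It read 3.94, 16.7 and 6.20 CPM in KO1 and 5.38 and 10.5 CPM in KO2. Each KO library exceeded the WT range, the 2 without high collagen included. The authors' deposited table gave KCNJ2 a log2 fold change of 2.61 (SE 0.57, adjusted p = 0.000641). The edgeR quasi-likelihood test gave 2.59 (SE 0.60) with a Benjamini-Hochberg adjusted p of 0.243, so the call depends on the tool. Without the high-collagen libraries edgeR gave 1.84 (adjusted p = 0.501) and DESeq2 1.83 (adjusted p = 0.0575). KCNJ2 was also 1 of the 3 members with an H3K27me3 peak in the WT list alone: 818 bp at chr17:70169788-70170605, 256 bp downstream of the start site of the sequence above, at 5.86-fold over the control. The gene has an antisense partner in the count table, and whether counting used strand is not stated in the labels.

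Of the 12 inward rectifiers tested, 5 had a positive and 7 a negative log2 fold change. KCNJ10, the main inward rectifier of glia, read 15.8, 9.22 and 11.6 CPM in WT, against 6.11, 0.842 and 8.34 in the KO1 line and 1.08 and 3.32 in KO2. KCNJ11, the pore of ATP-sensitive channels, read 6.31 to 11.9 CPM in WT and 1.57 to 5.58 CPM over the 5 KO libraries. Neither gene's groups overlapped, with edgeR log2 fold changes of -1.62 (SE 0.70) and -1.23 (SE 0.45) and adjusted p of 0.277 and 0.251. Without the high-collagen libraries the values were -0.74 and -0.60. The 6 astrocyte markers summed to 235 to 354 CPM in WT and 386 to 406 in the low-collagen KO libraries. In the high-collagen ones they summed to 758 to 1012 CPM. Of the 6, 4 had a positive and 2 a negative log2 fold change. Their relation to KCNJ10 was not tested. KCNJ5, a subunit of G protein-gated channels, spanned 10.2 to 39.4 CPM in WT and 1.07 to 25.4 CPM in KO, with overlap (log2 fold change -1.39, SE 0.94, edgeR adjusted p = 0.422), and -0.34 without the high-collagen libraries. Single libraries moved it too: edgeR gave -0.64 without WT replicate 1, and DESeq2 -2.45 (adjusted p = 0.00942) without KO1 replicate 3. KCNJ9, another subunit of these channels, read 4.51 to 11.5 CPM in WT and 0.786 to 8.14 CPM in KO, again with overlap. KCNJ10, KCNJ5 and KCNJ9 all had H3K27me3 peaks in the KO list only, and KCNJ11 had none. KCNJ9 and KCNJ10 are neighbours on chromosome 1, so their chromatin is not 2 independent observations. Among those higher by value, KCNJ13 and KCNJ12 are given although the naming rule did not select them. KCNJ13 read 0.617 to 1.99 CPM in WT and 0.842 to 5.80 CPM in KO, with only KO1 replicate 2 inside the WT range. Its edgeR log2 fold change was 1.76 (SE 0.67, adjusted p = 0.257), and 1.87 without the high-collagen libraries. KCNJ13 lies within the span of GIGYF2, so reads of the 2 genes may not be told apart. KCNJ12 had 1.40 (SE 0.80, edgeR adjusted p = 0.358) with all libraries and -0.20 without the high-collagen ones.

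KCNC1 (Kv3.1) belongs to the Kv3 class of voltage-gated channels, which support fast firing. It read 40.0, 53.1 and 64.5 CPM in WT, against 27.8, 16.7 and 43.2 in the KO1 line and 15.3 and 23.5 in KO2. Only KO1 replicate 3 reached into the WT range, and the log2 fold change was -1.05 (SE 0.34, edgeR adjusted p = 0.243), or -0.56 without the high-collagen libraries. KCNC1 had a KO peak alone, 770 bp at chr11:17735876-17736645, which spans one of its RefSeq start sites.

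None of the Kv1 and Kv4 members had an edgeR call. KCNA1 (Kv1.1), a channel of axons, read 0.522 to 2.39 CPM in WT and 1.93 to 30.0 CPM in KO, and the authors' deposited table called it higher (log2 fold change 2.82, SE 0.89, adjusted p = 0.0323). The 30.0 CPM came from KO2 replicate 1, and the other KO libraries reached at most 5.46 CPM. DESeq2 gave 1.59 (adjusted p = 0.112) without that library and 1.51 (adjusted p = 0.524) without all 3 high-collagen libraries. KCNA2 (Kv1.2), also axonal, read 9.77 to 12.5 CPM in WT and 4.52 to 12.9 CPM in KO. KCND3 (Kv4.3), an A-type channel, read 55.9 CPM in KO2 replicate 1, 5.90 to 20.2 in the other KO libraries and 8.85 to 13.7 in WT. KCND1 (Kv4.1) read 4.05 to 5.47 CPM in WT and 2.32 to 6.24 CPM in KO, with a log2 fold change of -0.01. The 2 low-collagen KO libraries (2.48 and 2.32 CPM) lay below all WT libraries and the 3 high-collagen ones (5.73 to 6.24 CPM) above them, so that edgeR without the latter gave -0.93 (SE 0.29, adjusted p = 0.533). Its 353 bp peak in the WT list lies 245 bp upstream of its start and also within 2 kb of an end of GRIPAP1.

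Silent Kv subunits, which form channels only together with Kv2 pores, gave the widest fold change. KCNS1 read 0 to 0.122 CPM in WT, 0.051 and 0.117 CPM in the KO1 libraries without high collagen, and 15.0, 3.23 and 2.33 CPM in the 3 high-collagen libraries. The authors' deposited table listed it at 6.70 (SE 2.03, adjusted p = 0.0242), and DESeq2 without these 3 libraries gave 1.06 (SE 2.76, unadjusted p = 0.701). WT held only 3 counts of KCNS1 in all and KO 392, a ratio per depth of 82.8 with an exact 95% interval of 28.1 to 403 that covers counting error only. KCNS3 went the other way, with 3.91 to 6.72 CPM in WT and 0.786 to 3.38 CPM in KO and no overlap (log2 fold change -1.27, SE 0.47, edgeR adjusted p = 0.251, and -0.65 without the high-collagen libraries). KCNG1 read 13.8 to 53.6 CPM in WT and 7.18 to 23.0 CPM in KO. All 3 had H3K27me3 peaks in both lists, as had 8 of the 10 silent subunits in each list.

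**Figure D1:**
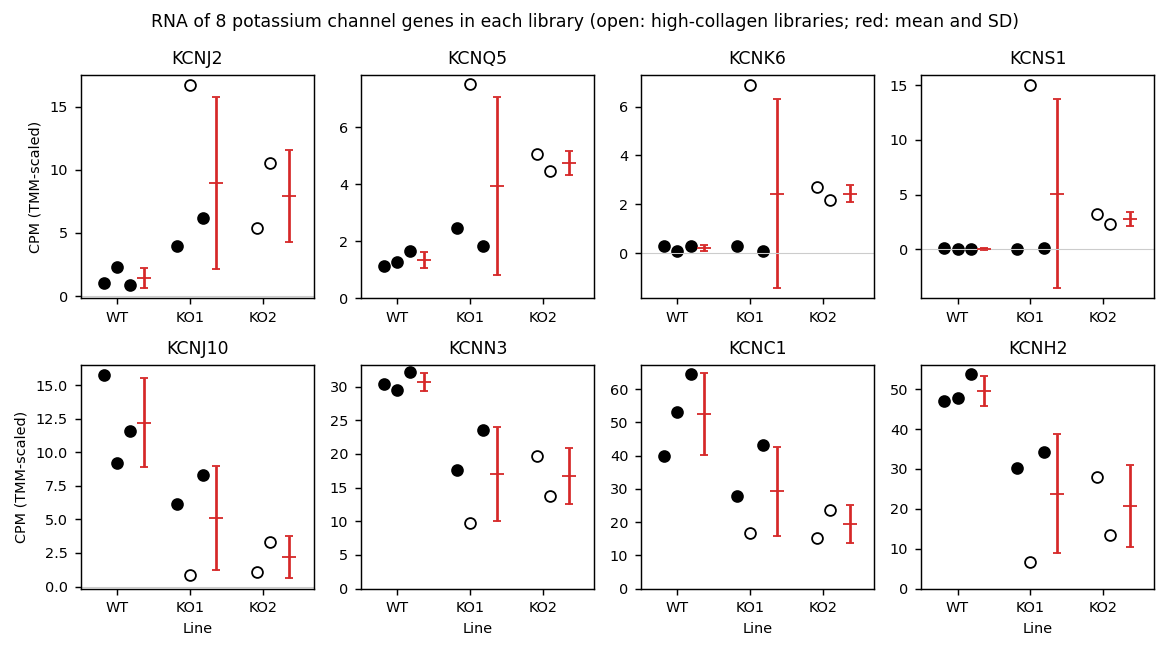
RNA of 8 potassium channel genes in CPM (vertical axis, from 0 or below) in WT, KO1 and KO2, 1 point per library, open points for the 3 high-collagen libraries, and red marks for each line's mean and SD. KCNJ2 and KCNQ5 are higher in all 5 KO libraries, KCNS1 is above 0.122 CPM only in the open points, and KCNJ10, KCNN3 and KCNH2 are lower in all 5.

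Kv7 channels carry the M-current that restrains repetitive firing. KCNQ3 (Kv7.3) read 56.6 to 123 CPM in WT and 9.43 to 64.4 CPM in KO, with overlap (log2 fold change -1.25, SE 0.52, edgeR adjusted p = 0.271, and -0.68 without the high-collagen libraries). KCNQ5 (Kv7.5) read 1.14, 1.27 and 1.66 CPM in WT, against 2.48, 7.52 and 1.82 in the KO1 line and 5.06 and 4.46 in KO2. Its groups did not overlap, and the authors' deposited table called it higher (log2 fold change 1.67, SE 0.50, adjusted p = 0.0233), while edgeR gave an adjusted p of 0.243. Without the high-collagen libraries the edgeR value was 0.67. KCNQ5 had peaks of both lists over its start site, the longest 2771 bp in the WT list and 3545 bp in the KO list.

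In the EAG, ERG and ELK family 6 of the 7 members tested were lower in KO by value, with a median log2 fold change of -0.63, or -0.15 without the high-collagen libraries. KCNH2 (ERG1), which repolarises heart cells and damps firing in neurons, read 47.1, 47.8 and 53.8 CPM in WT, against 30.3, 6.73 and 34.4 in the KO1 line and 27.9 and 13.5 in KO2. All 5 KO libraries lay below the WT libraries. The edgeR log2 fold change was -1.13 (SE 0.46, adjusted p = 0.268). KCNH2 was the 1 member that DESeq2 called without the high-collagen libraries, at -0.61 (SE 0.16, adjusted p = 0.0162). The KO side of that fit is KO1 replicates 1 and 3 only, so it says nothing of KO2. KCNH4 read 1.82 to 2.73 CPM in WT and 0.224 to 1.57 CPM in KO, with no overlap, and a log2 fold change of -1.34 that was -0.51 without the high-collagen libraries. KCNH8 read 27.2 to 36.5 CPM in WT, 29.9 and 24.7 CPM in the low-collagen KO1 libraries, and 3.82 to 11.2 CPM in the high-collagen ones. KCNH7 read 4.34 to 11.3 CPM in WT and 0.561 to 9.25 CPM in KO, and its log2 fold change turned from -0.63 to 0.19 without the high-collagen libraries. KCNH2, KCNH7 and KCNH8 had KO peaks only, the one of KCNH2 starting 1888 bp upstream of its nearest RefSeq start. KCNH6, with a WT peak only over its start, stayed at or below 0.081 CPM in all libraries and was not tested.

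Calcium-activated channels were lower by value in the SK class. KCNN3 (SK3) read 30.4, 29.5 and 32.1 CPM in WT, against 17.6, 9.71 and 23.6 in the KO1 line and 19.7 and 13.8 in KO2, a narrow WT group with all KO libraries below it. Its edgeR log2 fold change was -0.86 (SE 0.26, adjusted p = 0.243), and -0.57 without the high-collagen libraries. The authors' deposited table gave -0.85 (adjusted p = 0.0544). KCNN1 (SK1) read 30.4 to 37.2 CPM in WT and 3.23 to 28.5 CPM in KO, also without overlap, and its log2 fold change of -0.95 was -0.30 without the high-collagen libraries. H3K27me3 at KCNN1 covered 3068 bp of peaks in the WT list and 7841 bp in the KO list. That was the widest gain in summed length among the members in both lists. Both WT peaks and a KO peak of 3117 bp lie at the gene's far end, also within 2 kb of an end of ARRDC2. The other KO peaks, of 1027, 1763 and 1934 bp, lie within 2 kb of the KCNN1 start site, where the WT list had none. KCNMA1, the pore of BK, is given although the naming rule did not select it. It read 10.2 to 21.2 CPM in WT and 16.9 to 74.0 CPM in KO, with overlap. Its edgeR log2 fold change was 1.14 (SE 0.51, adjusted p = 0.284), and 0.40 without the high-collagen libraries. KCNT2, a sodium-activated relative of BK, read 20.4 to 33.0 CPM in WT and 23.1 to 38.3 CPM in KO, with a log2 fold change of -0.03.

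2-pore channels, which carry the leak current, were mostly higher by value, 7 of 9 tested. Their median log2 fold change was 0.27, or 0.21 without the high-collagen libraries. The 2 medians cover different genes. The second lacks KCNK6 (3.55 with all libraries) and KCNK15 (2.09), which did not pass the filter there, and takes in KCNK4 (0.39 there). Among the 7, KCNK2 had only 0.03 (SE 0.39) and KCNK3 0.008 (SE 0.60). KCNK2 had -0.25 without the high-collagen libraries. KCNK6 (TWIK-2) read 0.069 to 0.284 CPM in WT and 0.303 and 0.088 CPM in the low-collagen KO1 libraries, against 6.90, 2.69 and 2.18 CPM in the high-collagen ones. The authors' deposited table called it higher (log2 fold change 3.60, SE 1.15, adjusted p = 0.0349), and DESeq2 without the 3 libraries gave -0.10 (SE 1.35). KCNK10 (TREK-2) and KCNK5 (TASK-2) were the exceptions. KCNK5 had a log2 fold change of -0.25 (SE 0.59), and -1.05 (SE 0.63) without the high-collagen libraries. KCNK10 had 27.3 to 32.6 CPM in WT and 2.69 to 23.2 CPM in KO without overlap (log2 fold change -1.06, SE 0.54, edgeR adjusted p = 0.318, and -0.47 without the high-collagen libraries). Its KO peak, 2427 bp at chr14:88324829-88327255, covers the whole printed promoter. KCNK9 (TASK-3) read 1.45 to 6.03 CPM in WT and 1.07 to 21.9 CPM in KO. KCNK4 (TRAAK) stayed at or below 0.559 CPM and carried the longest peaks of all members, 6698 bp in the WT list and 7273 bp in the KO list. Its peaks also lie within 2 kb of ends of GPR137 and CATSPERZ.

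Among the auxiliary subunits of Kv1 channels, KCNAB2 and KCNAB3 were lower by value and KCNAB1 hardly differed. KCNAB1 read 2.67 to 4.29 CPM in WT and 2.63 to 4.43 CPM in KO (log2 fold change -0.098, SE 0.27). KCNAB2 read 27.7 to 42.4 CPM in WT and 17.0 to 26.7 CPM in KO (log2 fold change -0.64, SE 0.21, edgeR adjusted p = 0.243), and KCNAB3 18.6 to 32.4 CPM in WT and 8.51 to 17.9 CPM in KO, both without overlap and without an H3K27me3 peak. Without the high-collagen libraries their log2 fold changes were -0.35 and -0.48. KCNIP2, a calcium sensor that binds Kv4 pores, read 8.47 to 15.9 CPM in WT and 4.20 to 8.51 CPM in KO (log2 fold change -0.88, SE 0.30, edgeR adjusted p = 0.246). Its 3012 bp KO peak was the longest among members with a peak in 1 list, and it also lies within 2 kb of an end of ARMH3. KCNIP4, of the same family, read 1.54 to 4.39 CPM in WT and 0.823 to 6.12 CPM in KO. KCNMB1, the BK subunit of smooth muscle, read 0.034 to 0.081 CPM in WT and 0.059 to 2.37 CPM in KO, highest in KO2 replicate 1, and the authors' deposited table called it higher (log2 fold change 3.90, SE 1.19, adjusted p = 0.0247). DESeq2 gave 2.99 (adjusted p = 0.114) without that library and 2.54 (unadjusted p = 0.124) without the 3 high-collagen libraries. The call with all libraries rested on 4 counts in WT and 88 in KO, a ratio per depth of 13.9 with an exact 95% counting interval of 5.25 to 52.3. Of the 12 mesenchymal markers, 10 were called higher in the authors' deposited table, the smooth muscle genes TAGLN and ACTA2 among them. Whether KCNMB1 goes with these markers was not tested.

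**Figure D2:**
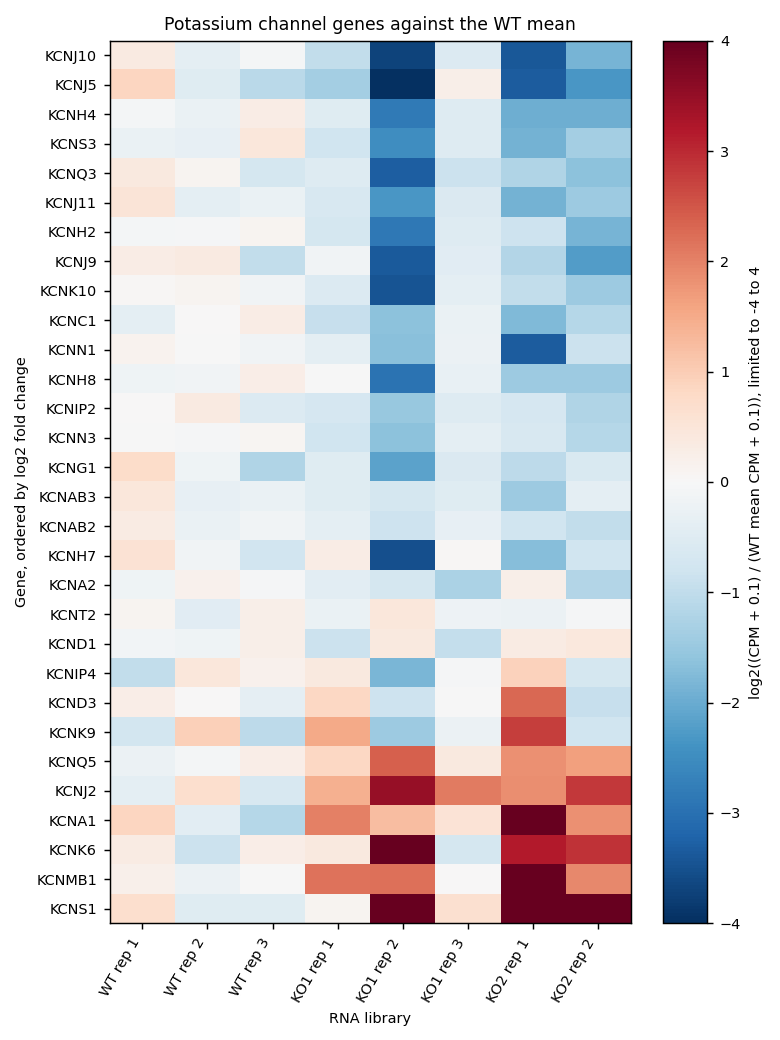
Members described here that met the naming rule and passed the filter (rows, ordered by edgeR log2 fold change) in each RNA library (columns). Colour is log2 of CPM + 0.1 over the WT mean + 0.1, with both ends of the colour scale capped. The deepest blue and red fields lie in KO1 replicate 2 and the 2 KO2 libraries, as for KCNJ10, KCNJ5, KCNK6 and KCNS1.

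Over all members, 63 of 95 had a mean of at least 1 CPM in WT, and 5 (KCNA6, KCNA10, KCNG4, KCNJ18 and KCNK16) were listed at 0 in every library. KCNJ12 and KCNJ18 are near-identical copies, so a value of 0 for one is uncertain. The filter on low counts left 74 for the test, and 42 had a negative log2 fold change. The median was -0.17, beside -0.0051 over the 18614 genes tested. Without the high-collagen libraries it was -0.19 over 70 members tested, beside -0.0040 over 18755 genes. edgeR called 0 of 74 members, with a background of 0.0% (0 of 18614 genes). At an unadjusted p under 0.05 it had 10 members higher (13.5%, background 11.5%) and 12 lower (16.2%, background 6.45%). The authors' deposited table called 6 members higher, 6.67% of the 90 with a p-value (background 2.84%), and 0 lower (background 0.68%). The 5 KO values all exceeded the 3 WT values in 3 members (4.05%, background 6.28%), and were all below them in 11 (14.9%, background 6.15%). Without the high-collagen libraries these counts were 6 (background 13.6%) and 15 (background 12.3%), and DESeq2 called 0 higher (background 0.486%) and 1 lower (background 0.305%). Leaving out single libraries moved the DESeq2 count from 1 to 18 members. Without KO1 replicate 3 it called 9 higher (background 5.95%) and 9 lower (background 2.37%), and without WT replicate 2 it called KCNJ2 alone. KCNJ2 was called in each of these 8 fits. KCNS1 was called in 5 of them, and not without WT replicate 2 or either KO2 library. KCNA1 was called in 4, and not without WT replicate 2, WT replicate 3 or either KO2 library. KCNMB1 was called in 4, and not without any 1 of the WT libraries or KO2 replicate 1. KCNQ5 and KCNK6 were called in 2 each, those without KO1 replicate 1 or KO1 replicate 3.

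The 2 lines shared the WT controls and gave 0 edgeR calls among 79 members tested in each case, with a background of 0.0% of 19440 genes in each comparison. At an unadjusted p under 0.05 there were 6 members for KO1 set against WT (7.59%, background 8.06%), 18 for KO2 set against WT (22.8%, background 18.3%) and 3 between the lines (3.80%, background 2.24%). DESeq2 called 1, 6 and 0 members in the same order (background 0.495%, 2.4% and 0.0257%). Without KO1 replicate 2 edgeR called 4 members between the lines (background 4.95%). Among them KCNK6 (log2 fold change 3.72) and KCNS1 (4.88) were higher in KO2, and KCNH8 (-1.29) was lower. In that fit both KO2 libraries are high-collagen and the remaining KO1 libraries are not, so line and collagen level cannot be told apart. KO1 replicate 2, left out there, read 6.90 CPM for KCNK6 and 15.0 CPM for KCNS1. KCNJ2 had a log2 fold change of 2.65 in KO1 and 2.48 in KO2. KCNN3 had -0.85 and -0.88, and KCNQ5 1.53 and 1.81. KCNJ5 had -0.89 in KO1 and -2.80 in KO2, a difference that edgeR did not call.

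The 12 members with a KO peak only were all expressed in WT, with a median of 25.8 CPM. That was above the median of 1.97 CPM in the 46 members with peaks in both lists. Over all genes the same classes had medians of 6.57 and 1.31 CPM, in the same order. CPM is not corrected for length, and the part of gene length in these medians was not tested. Of these 12, 11 had a negative log2 fold change (91.7%), and KCNIP4 stood at 0.03. Their median was -0.99. Over all 399 tested genes with a KO peak only, 65.7% were negative and the median was -0.24. In 4 of the 12, KCNH2, KCNJ10 and KCNK10 among them, all KO libraries lay below WT (33.3%), beside 12.8% of the 399 genes. Without the high-collagen libraries 10 of 12 were negative with a median of -0.32, beside 61.3% and -0.09. Members with peaks in both lists had a median of 0.13 (16 of 38 negative), beside 0.24 and 39.9% negative over all tested genes of that class. Those with none had -0.20 (14 of 22 negative), beside -0.01 and 51.4%. All KO libraries lay below WT in 7.89% of the 38, beside 4.91% over all genes of the class. For the 22 this share was 18.2%, beside 6.74%. None of the 12 passed the edgeR test or the authors' test.

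**Figure D3:**
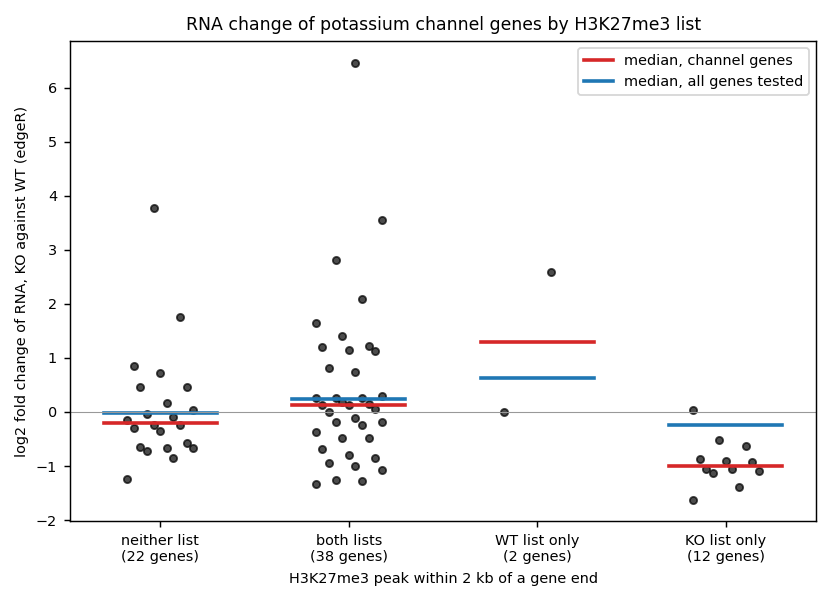
edgeR log2 fold change of RNA, KO against WT (vertical axis), for the 74 tested members by the lists that hold an H3K27me3 peak within 2 kb of a gene end, 1 point per gene, with medians for the members (red) and for all genes tested (blue). In the class with a KO peak only, 11 of 12 points lie below 0.

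Of the 46 members without a WT peak, 12 (26.1%) had a KO peak, beside 2.82% of the 15831 protein-coding genes without one. Of the 49 with a WT peak, 3 (6.12%) had no KO peak, beside 10.6% of 2935. Members with a peak in 1 list had lower peaks by median than members in both lists. The highest fold over the control at a member ranged from 3.43 to 6.81 in the class with a KO peak only (median 4.44). For the 3 with a WT peak only it ranged from 4.10 to 6.21 (median 5.86). Members in both lists had medians of 9.24 in the WT list and 8.33 in the KO list. The median fold over all single peaks was 5.28 in the WT list and 4.50 in the KO list. These folds are the authors' values per peak. Summed peak length was greater in the KO list for 35 of the 46 shared members and smaller for 11, with medians of 3216 bp and 2587 bp. KCNG2 was among the 11. The tag numbers of the 2 lists differ, as given above, and their part in these differences was not tested.

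**Figure D4:**
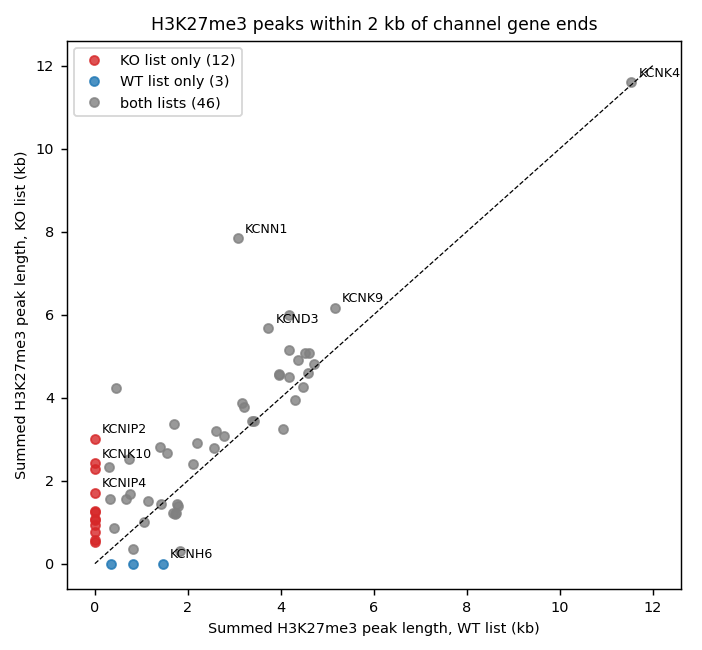
Summed length in kb of the H3K27me3 peaks within 2 kb of a member's ends, WT list (horizontal) against KO list (vertical), 1 point per gene, with the dashed line of equality. Of the 46 shared members 35 lie above the line, with KCNN1 farthest above it, and the 12 red points on the vertical axis have a KO peak only.

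**Figure D5:**
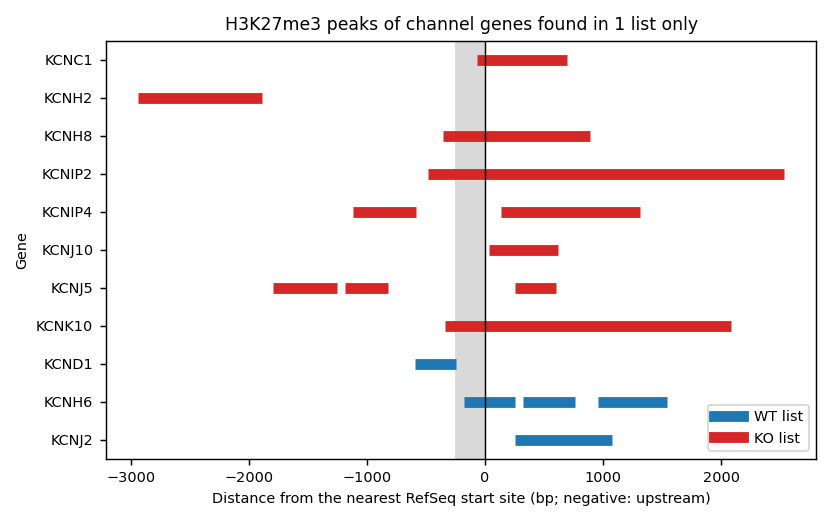
Extent of the peaks that lie in 1 list only, in bp from the nearest RefSeq start site (0, negative upstream), for the 11 such members with a start site at hand (vertical axis). The grey band is the 250 bases of the printed promoters, which the KO peaks of KCNH8, KCNIP2 and KCNK10 span and the WT peak of KCNJ2 does not reach.

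H3K36me3 was sparse over channel genes. The WT list had a peak over the span of 10 of 95 members (10.5%), beside 20.1% of all genes with a position, and the KO list over 0, beside 10.6%. The 10 were KCNC1, KCNG1, KCNH2, KCNH3, KCNIP2, KCNIP4, KCNJ13, KCNJ14, KCNK10 and KCNN1, with peaks of 269 to 591 bp. KCNC1, KCNH2, KCNIP2, KCNIP4 and KCNK10 are also among the 12 with an H3K27me3 peak in the KO list only. The 2 H3K36me3 lists are unequal, with 30144 peaks in WT and 8937 in KO, and the KO header gives a fragment length of 200 bp against 269 bp, so the members' count and the size of the whole list cannot be told apart.

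Genes that work with potassium channels (pore partners, anchors, calmodulins, HCN and other cation channels, and REST, the repressor of neuronal genes) were 34, of which 31 were tested. Of these, 11 had a positive and 20 a negative log2 fold change, with a median of -0.38. The split was 17 positive and 14 negative without the high-collagen libraries, with a median of 0.02. edgeR called 0, with 2 higher (background 11.5%) and 3 lower (background 6.45%) at an unadjusted p under 0.05, and the authors' deposited table called 0. HCN3, a pacemaker channel, read 47.2 CPM ± 5.08 (SD, n = 3) in WT, against 30.9 ± 6.06 (SD, n = 5) in KO (edgeR log2 fold change -0.61, SE 0.17, adjusted p = 0.243, and -0.34 without the high-collagen libraries). LRRC26, which lets BK channels open without strong depolarisation, read 2.30 ± 1.57 CPM (SD, n = 3) in WT, against 0.561 ± 0.433 (SD, n = 5) in KO (edgeR log2 fold change -2.04, SE 0.65, adjusted p = 0.243, and -1.61 without the high-collagen libraries). AMIGO1, the partner of Kv2, read 22.2 ± 2.29 CPM (SD, n = 3) in WT, against 17.1 ± 2.38 (SD, n = 5) in KO. REST read 54.3 ± 11.1 CPM (SD, n = 3) in WT, against 75.3 ± 13.3 (SD, n = 5) in KO (edgeR log2 fold change 0.47, SE 0.19, adjusted p = 0.267, and 0.21 without the high-collagen libraries).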

How the data were processed

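The members, gene lists and tests were chosen with earlier results of these data known. The submitters' processing notes name Salmon 1.1.0, DESeq2 1.26.0, Bowtie2 2.4.1 and the build GRCh38. The deposited table holds estimated counts per gene symbol, not normalized. The authors' deposited table of differences gives a mean signal of normalized counts, log2 fold changes, a score (the Wald statistic) and p-values, with an adjusted p-value of 1 where none was computed. Narrow peaks come from MACS2 2.2.7.1 (q 0.01), per the file headers, and the deposited lists give the pileup signal, the fold ratio over control and the -log10 q-value of each peak. The KO headers name 1 alignment for 2 lines, and the labels do not say whether the lines were pooled.

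Counts were rounded and tested with edgeR 4.0.16 (R 4.3.3; filterByExpr, TMM, quasi-likelihood F-test, Benjamini-Hochberg over all genes tested, threshold 0.05), with DESeq2 1.42.0 as the alternative. KO against WT pooled both lines, and a fit with 3 groups gave each line. CPM are TMM-scaled. The labels name biological replicates without saying if each had its own differentiation, so a p-value reflects only how these libraries vary, which may be technical. Both count tools were tested on simulated data. Members were named if a test called them, if KO and WT libraries did not overlap, if they had the highest mean CPM in WT of their family, if they were among the 5 largest changes each way, if their H3K27me3 peak was in 1 list, or if they had 1 of the 5 longest peaks. A few such members are not reported here. Alternatives were other scalings and filters, a replicate block, libraries left out, stricter or longer peaks and other windows. Leaving out the 3 high-collagen libraries was added after seeing the data, and it leaves KO1 as the only KO line. Gene positions come from RefSeq GRCh38.p14.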

Additional observations from a re-analysis of the deposited data

Results flagged for a closer look

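In the 5 KO libraries, 1 library lay far from the others for 5 of the 35 members that met the rule for naming (Dixon's gap over range above 0.71, a level that chance passes in about 1 of 20 groups). KO2 replicate 1 was highest for KCNA1 at 29.96 CPM, for KCND3 at 55.95 CPM and for KCNMB1 at 2.374 CPM. KO1 replicate 2 was highest for KCNS1 at 15.04 CPM and for KCNT2 at 38.33 CPM. Both are high-collagen libraries, and all 5 gaps were at the upper end.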

How the results depend on the processing

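Same-numbered WT and KO1 libraries had correlations of deviations from their line's mean of 0.0692, -0.321 and -0.221. For WT and KO2 these were 0.0499 and -0.107, and for KO1 and KO2 0.267 and 0.164. Each mean rests on few libraries, so these values cannot decide whether the replicate numbers pair the libraries. With a replicate block edgeR called 0 members, as without it. DESeq2 called 1243 genes and 6 members in KO against WT, 1 in KO1 against WT and 6 in KO2 against WT, where edgeR called 0. The other edgeR settings for KO against WT, leaving out any 1 library or the 3 high-collagen libraries included, called 0 members. KO2 against KO1 gave 0 to 4 members with 1 library left out, the 4 without KO1 replicate 2. Among members DESeq2 called 1 to 18 with 1 library left out, and 1 without the 3 high-collagen libraries. KCNJ2 was called higher in each of the 8 fits that left out 1 library. The 18 came without KO1 replicate 3 (9 higher, 9 lower), and 1 without WT replicate 2, 3 without WT replicate 3, and 2 without KO2 replicate 1 or KO2 replicate 2. Members with all KO libraries above WT numbered 3 to 10 with 1 library left out (10 without WT replicate 1, 5 without WT replicate 2, 9 without KO1 replicate 3), and 6 without the 3. A minimum of 5 CPM in WT left 33 detected members. H3K36me3 peaks of at least 500 bp left 1 member in the WT list, and an overlap of 10% of the gene span left 0. Counts of members with H3K27me3 peaks stayed within 1.5 times under stricter, longer or other windows. Among log2 fold changes of named members, 17 of 485 alternatives turned the sign. KCND1 gave 0.0155 with 3 groups, 0.0127 with RLE scaling, 0.00854 with DESeq2, -0.13 to 0.16 with 1 library left out, and -0.93 without the 3 high-collagen libraries. KCND3 gave -0.0523 to 1.04, KCNIP4 -0.34 to 0.34 and KCNT2 -0.22 to 0.10 with 1 library left out. KCNIP4 gave -0.27 with the block, and KCNH7 0.19 without the 3 high-collagen libraries. The cause was not tested. Depth limits members under 1 CPM, such as KCNMB1 and KCNK6 in WT.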
